A study of Rattus norvegicus with 28 samples.

Results

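Constant mechanical ventilation of uninjured rat lungs was read from 7 of the 28 libraries of the series, the 4 healthy_VCV libraries against the 3 control_blank libraries, over all 17002 genes of the deposited table. These members were taken by their labels and not by any measured value. All rats were Sprague Dawley, and each library holds poly(A)-selected RNA of a right upper lung lobe. The control_blank animals had no lung injury and no ventilation. The healthy_VCV animals had no earlier injury and were ventilated under volume control, so that every breath carried the same tidal volume. Of the other groups, healthy_noisy (n = 3) was uninjured and ventilated with a tidal volume that varied from breath to breath, and acute_VCV (n = 3) received constant ventilation after acute injury. The control_chronic animals (n = 5) were unventilated and taken 14 days after the induction of a chronic injury, and chronic_VCV (n = 3) received constant ventilation after such an injury. The labels used here give neither the agent of the injuries, nor the age or sex of the rats, nor the length, pressure or volume of ventilation, nor the anaesthesia, and they do not say whether each library came from a separate animal. All p-values therefore measure only the spread between these libraries, which may be technical.

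A mechanical ventilator pushes gas into the lung under positive pressure, where natural breathing draws it in. Each breath stretches the alveolar wall, in which flat type 1 epithelial cells and capillary endothelium share a basement membrane, while type 2 cells make surfactant and the airways are lined by ciliated and secretory (club) cells. Stretch is sensed by integrins, ion channels and the YAP and TAZ coactivators. Ventilation at high stretch is known for the release of cytokines and chemokines, for the entry of neutrophils from the blood and for leakage of the barrier. Ventilated animals also differ from unventilated ones by anaesthesia, handling and time, and these cannot be told apart from the stretch in this design.

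Promoter sequences of 4 genes are printed because 1 gene had the largest increase among those named and the others belong to a list with 16 lower genes and 0 higher, of which they hold a shared element. Each is from RefSeq on the GRCr8 build, 5′ to 3′ on the strand of the gene, and ends at the base before the transcription start. Hspe1 (chr9:64084237-64084326, plus strand), Hsph1 (chr12:10427278-10427367, plus strand) and Serpinh1 (chr1:163062977-163063066, minus strand) encode a mitochondrial cochaperonin, a large cytosolic chaperone and the collagen chaperone of the endoplasmic reticulum. Their capitals mark the heat shock element, searched on both strands as GAA, any 2 bases, TTC, any 2 bases and GAA. Prok2 (chr4:133917934-133918083, minus strand) encodes a secreted peptide that attracts myeloid cells. Its capitals mark an E-box, CACGTG, and an AP-1 site, TGANTCA.
Hspe1: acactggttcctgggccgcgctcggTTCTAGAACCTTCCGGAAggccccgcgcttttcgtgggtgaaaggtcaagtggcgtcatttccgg
Hsph1: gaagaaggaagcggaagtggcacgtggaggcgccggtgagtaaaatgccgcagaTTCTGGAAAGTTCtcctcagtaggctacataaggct
Serpinh1: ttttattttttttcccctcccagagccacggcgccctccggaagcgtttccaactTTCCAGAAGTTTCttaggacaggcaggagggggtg
Prok2: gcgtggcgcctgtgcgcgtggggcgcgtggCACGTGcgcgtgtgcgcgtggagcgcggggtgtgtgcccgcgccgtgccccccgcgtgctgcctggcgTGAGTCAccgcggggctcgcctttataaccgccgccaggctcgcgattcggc
Within the 250 bases before the start, the heat shock element was present in 4 of the 23 heat shock and chaperonin genes with a promoter in the table (17.4%), and in 164 of all 27457 promoters (0.597%). The 4 were the genes above and Hspd1, which faces Hspe1 across the same stretch and so shares its element. In Hspe1, 2 matches overlap. The E-box was in 5.79% and the AP-1 site in 6.36% of all promoters. Other motifs were counted in other lists as well. NF-kB sites were in 4 of 12 NF-kB genes (33.3%, against 1.28% of all promoters). The glucocorticoid element was in 0 of 15 glucocorticoid response genes (against 0.364% of all promoters). A match is a run of letters and no evidence that a factor binds there, and its part in the change of a gene was not tested.

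In ventilated uninjured lungs 16 of 22 neutrophil genes, 11 of 13 genes of Toll-like receptors and adaptors, 12 of 18 integrins and 17 of 19 genes of collagens and basement membranes were higher, beside 29.3% of all tested genes. Among the lists with mostly lower genes, 14 of 18 genes of ciliated cells, 16 of 27 heat shock proteins and chaperonins, 51 of 63 cytosolic ribosomal proteins and 62 of 76 respiratory chain genes were lower, beside 28.1% of all tested genes. Of 21 monocyte and macrophage genes 12 were higher and 1 lower, while genes of smooth muscle and endothelium were called in both directions. None of 28 chemokine genes was called higher. Of 15 YAP and stretch targets 7 were higher and 4 lower. Connective tissue growth factor (Ctgf), a well-known target of stretch, was among the lower. In whole tissue, fewer cells of a type and less RNA per cell cannot be told apart.

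Of 14908 genes tested, 8559 (57.4%) differed between healthy_VCV and control_blank, 4366 higher (29.3%) and 4193 lower (28.1%). Levels are deposited values, read counts divided by a size factor for each library, and changes are differences of log2(value + 1) ± SE from limma, a linear model with a shared variance estimate. A gene counted as called when its two-sided p, adjusted by Benjamini-Hochberg over all tested genes, was under 0.05. The pseudocount of 1 understates the change of genes with low values. Large changes were mostly increases, with 772 genes called and higher by over 2 on the log2 scale (5.18%) against 126 lower by as much (0.845%). Beyond 3 the counts were 153 higher (1.03%) and 7 lower (0.047%). The median change over all tested genes was -0.03. With 57.4% of all genes called, the count for a list is given beside these shares and nothing is called particular to a list.

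Library numbers in the titles form series, and their meaning is not given in the labels. All control_blank libraries belong to series 12, healthy_VCV 025, 057 and 060 to series 14, and 062 to series 15, so ventilation and number series cannot be told apart in this comparison. Depth was 22277745 to 30960809 reads in control_blank and 17855648 to 21510253 in healthy_VCV, counting the reads recovered from the values. Within healthy_VCV the median change of 062 against the libraries of series 14 was 0.003 over all tested genes. Only 062 is of series 15 there, so its own spread is unknown. That comparison therefore cannot show whether the series differ. The control_blank libraries spread in one order over much of the result. Among the 4366 genes called higher, control_blank 016 held the lowest control value in 3249 (74.4%) and 074 the highest in 3408 (78.1%). Among the 4193 called lower, 016 held the highest control value in 3024 (72.1%). Among the 6349 genes not called, 016 was lowest in 35.5% and highest in 39.4%. RNA integrity and transcript length were not analysed here, and their part in this order, and in the values of the matrix, endothelial, ribosomal and mitochondrial lists given below, was not tested. Without 016, 6642 genes were called, of which 6496 were among the 8559 and had the same direction. On the first principal component of all 28 libraries (35.8% of the variance) control_blank lay at 108.89 (016), 76.66 (021) and 49.42 (074), healthy_VCV from -38.61 to -24.56, control_chronic from 41.78 to 59.12 and chronic_VCV from -15.01 to 17.1. Lung transcripts were abundant in all 7 libraries, with surfactant protein C (Sftpc) at 178711 or more and Scgb1a1, the secretory protein of club cells, at 156075 or more.

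**Figure D1:**
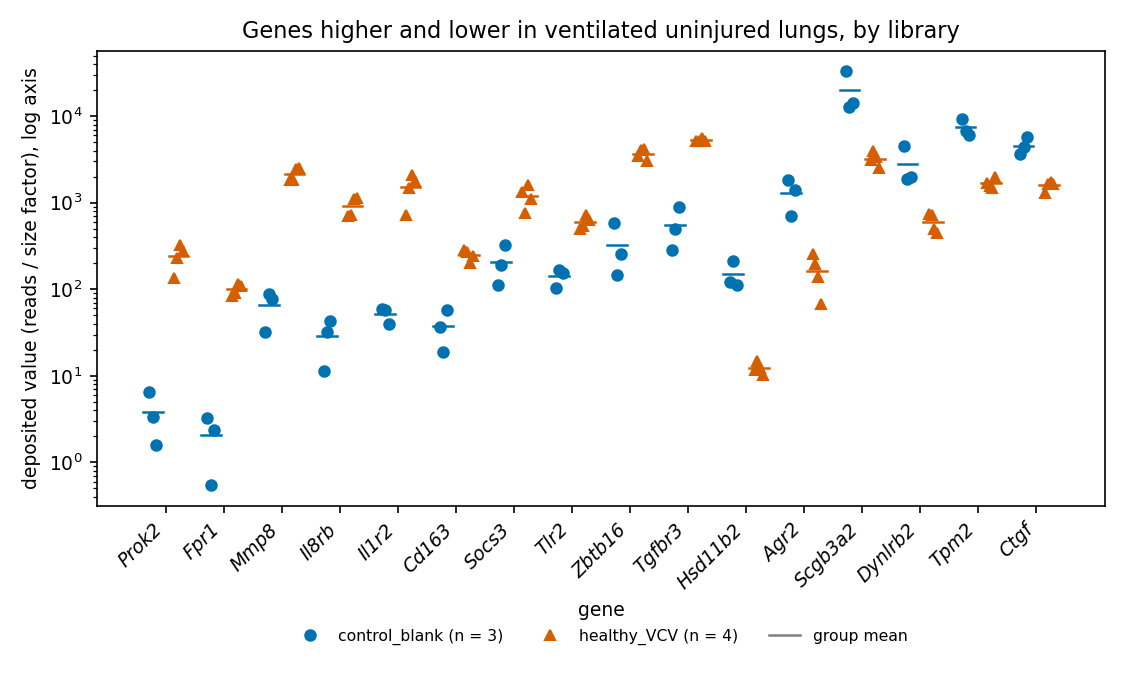
Deposited values (log axis) of 16 genes in each library, with circles for control_blank, triangles for healthy_VCV and a bar for each group mean. In every gene shown the 4 ventilated libraries lie wholly above or wholly below the 3 unventilated ones, from Prok2 at 1.6 to 6.48 against 137 to 322 down to Ctgf at 3610.4 to 5710.2 against 1295 to 1743.

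Values per library follow in the order control_blank 016, 021 and 074, then healthy_VCV 025, 057, 060 and 062. For every gene said below to have risen or fallen in this comparison, the 4 ventilated libraries did not overlap the 3 unventilated ones, except for Dnah9, F3, Gapdh, Gsdmd, Jub, Prdm1 and Calcrl. Over all tested genes the groups lay apart in 30.2% (higher) and 30% (lower). Genes named outside the fixed rule, mostly the few members of a small count, were chosen after their values were seen. Prok2 (ENSRNOG00000010898), the gene with the largest change among those named, stood at 6.48, 3.32 and 1.6 without ventilation and at 137, 228, 322 and 276 with it, a rise of 5.72 ± 0.53 (adjusted p = 2.8e-07). The groups lay far apart, with the unventilated libraries close to the floor of the assay. Mmp8 (ENSRNOG00000009907), the collagenase stored in neutrophil granules, went from 32.4, 88.5 and 77.5 to 1816, 1840.4, 2476 and 2515 and rose by 5.11 ± 0.54. Il8rb (ENSRNOG00000014269, now Cxcr2), the receptor through which neutrophils follow CXC chemokines, had 11.3, 32.1 and 43.1 and then 696, 726, 1115 and 1129.5, a rise of 5.09 ± 0.61. The formyl peptide receptor Fpr1 (ENSRNOG00000011174), which guides neutrophils to bacteria and to damaged mitochondria, was near the floor at 3.24, 0.55 and 2.4 without ventilation and reached 83.7, 90.2, 113.90 and 111 with it. S100a8 (ENSRNOG00000011557), a calcium-binding protein that fills the neutrophil cytosol, was already present at 592, 628 and 657 and reached 3901, 4244, 7258 and 4769, with a rise of 2.97 ± 0.52 (adjusted p = 5.9e-05). Of 22 neutrophil genes tested, 16 were higher and 1 lower, with a median of 2.94.

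The single lower member was Hdc, the histamine-forming enzyme, which is also a mast cell and basophil gene and changed by -1.50 ± 0.32. Retnlg, a resistin-like protein of neutrophils, rose by 3.98, the collagenase Mmp9 by 3.02 and the receptor subunit Itgam by 2.72. Camp, Mpo and Cd177, which are made in the marrow stages of the neutrophil, had changes of 0.74, 0.45 and 0.14 (adjusted p = 0.31, 0.76 and 0.82). Elane, another gene of those stages, rose by 3.48 ± 0.56. The summed value of the list was 5176 to 6350 in control_blank and 26570 to 47240 in healthy_VCV. The summed erythroid and platelet list, which follows the blood held in the tissue, was 146300 to 171500 against 87200 to 152500, and the part of blood in the neutrophil values was not tested. Of the other leading increases, Clec4d, a myeloid lectin, rose by 4.73, Ifit1lb, a relative of the interferon-induced antiviral proteins, by 3.99, and the desmosomal cadherin Dsg1b by 4.97 from at most 2.21 in control_blank. Rnase2, a ribonuclease of eosinophils and other myeloid cells, rose by 3.94, and Unc5d, a netrin receptor, by 3.93.

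Monocyte and macrophage genes were higher in 12 of 21 and lower in 1, with a median of 0.64. The scavenger receptor Cd163, which clears haemoglobin and marks resident macrophages, stood at 36.5, 18.8 and 57.5 and then 281, 267, 201 and 242, with no overlap and a rise of 2.81 ± 0.56 (adjusted p = 0.00021). Mertk, through which macrophages engulf dying cells, went from 148, 185 and 259 to 783, 915, 751 and 889, a rise of 2.11 ± 0.25. Ccr2, the receptor that brings monocytes out of the marrow, rose by 2.63 ± 0.56, and Msr1, a scavenger receptor for modified lipoproteins, by 2.52 ± 0.56, with library 060 far above the other ventilated ones. The lower gene was Trem2, a lipid receptor of macrophages, at -1.19 ± 0.41, and it was not called without control_blank 016 (-1.13, adjusted p = 0.0541) or healthy_VCV 060 (-0.99, adjusted p = 0.0556). The complement gene C1qa changed by -0.23 ± 0.19 (adjusted p = 0.32), and the summed list was 215800 to 247400 in control_blank against 175600 to 272400 in healthy_VCV.

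Of 19 B and plasma cell genes 9 were lower and 2 higher, with a median of -1.01. The higher ones were the transcription factors Ebf1 and Prdm1, the latter at 0.83 ± 0.27. Prdm1 was not called without control_blank 016 (0.28, adjusted p = 0.257) or with only the groups compared in the fit (adjusted p = 0.0906). Fcer2, the low-affinity receptor for immunoglobulin E on B cells, was at 193, 258 and 139 and then 67.1, 25.4, 50.8 and 24.5, and fell by 2.29 ± 0.66 (adjusted p = 0.0051). Cd79b, the signalling chain of the B cell receptor, went from 995, 1126 and 713 to 597, 154, 393 and 158. The groups of Cd79b did not overlap, but its ventilated libraries spread almost 4-fold. T and NK cell genes were mixed, 4 higher and 5 lower of 24, with a median of -0.54. Tbx21, the transcription factor of type 1 T cells and NK cells, fell by 1.89 ± 0.38 (adjusted p = 0.00024), from 418, 1073 and 383 to 152, 123, 146 and 181. Of 10 mast cell genes 8 were not called, and the carboxypeptidase Cpa3 stood at 293, 133 and 273 against 186, 288, 210.3 and 276, with overlap.

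Of 19 genes of interleukin 1 and the inflammasome 7 were higher, and 1 was lower, the pore-forming effector Gsdmd (-0.36 ± 0.12), with a median of 0.36. Gsdmd was not called without control_blank 016 (-0.28) or healthy_VCV 057 (-0.26), or by limma with only the groups compared in the fit (adjusted p = 0.0759). Il1b, the cytokine itself, stood at 371, 454 and 409 and then 1269, 1376, 2232 and 3773, a rise of 2.25 ± 0.54 (adjusted p = 0.0011). All ventilated libraries exceeded all controls, and they spread almost 3-fold. Il1r2 (ENSRNOG00000014378), a decoy receptor that neutrophils carry, went from 60, 57.5 and 39.9 to 717, 1462, 2070.4 and 1788 and rose by 4.74 ± 0.54. The accessory chain Il1rap rose by 2.31 ± 0.46 and the inflammasome sensor Nlrp3 by 2.15 ± 0.38. The processing enzyme Casp1 and the adaptor Pycard, which act with Nlrp3, were not called, at -0.22 ± 0.19 and -0.14 ± 0.20 (adjusted p = 0.34 and 0.56).

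In the interleukin 6 family 8 of 14 genes were higher and 2 lower, among them the ligand Clcf1, with a median of 1.08. Lifr, the receptor chain for leukaemia inhibitory factor, went from 166, 321 and 1119 to 3899, 3390.5, 4498 and 3498 and rose by 3.28 ± 0.48 (adjusted p = 8e-06). Socs3, the feedback inhibitor that this pathway induces, went from 113.46, 191 and 323 to 1322, 770.4, 1584 and 1102, a rise of 2.59 ± 0.37. Osm, a ligand of the family made by neutrophils and macrophages, rose by 2.33 ± 0.40, with library 025 highest at 224, and the kinase Pim1, a target of the pathway, rose by 1.57 ± 0.26. Il6 itself lay near the floor, with 0.81, 3.87 and 3.2 in control_blank and 4.14, 3.76, 6.13 and 0 in healthy_VCV, so that no difference was detectable at this depth.

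Chemokines call leukocytes into tissue. Of 28 tested, 0 were called higher by limma and 6 lower, with a median of -0.37, against 29.3% and 28.1% over all genes. At an unadjusted p under 0.05 limma gave 0 higher and 8 lower, and edgeR and DESeq2 each called 0 higher and 7 lower. Cxcl1 and Cxcl2, ligands of the receptor encoded by Il8rb, stood at 459.5, 399 and 202 against 157, 221, 210.3 and 326 and at 15.4, 17.1 and 27.2 against 31.5, 18.8, 61.3 and 83.7. Both overlapped between groups, with changes of -0.59 ± 0.62 and 1.08 ± 0.89 (adjusted p = 0.42 and 0.31). The monocyte chemokine Ccl2 was also not called, at -0.64 ± 1.01 (adjusted p = 0.61). Ccl21, which lymphatic vessels make to draw in lymphocytes and dendritic cells, went from 3709, 1963 and 1841 to 917, 911, 636 and 814 and fell by 1.55 ± 0.30 (adjusted p = 0.00013). Ccl19, the other ligand of the same receptor, fell by 2.19 ± 0.61, but was highest by far in control_blank 016 (1694) and was not called without it (-1.33, adjusted p = 0.0738). In acute_VCV the same chemokines were called against the same controls, Cxcl1 at 2.50 ± 0.66, Cxcl2 at 4.03 ± 0.95 and Ccl2 at 3.81 ± 1.08.

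Among lists of innate immune signalling, that of Toll-like receptors had the highest share of higher genes. Of 13 genes of Toll-like receptors and adaptors 11 were higher and 0 lower, with a median of 1.12. Tlr2, the receptor for bacterial lipoproteins, stood at 104, 166 and 155 and then 501, 541, 714 and 635, a rise of 2.09 ± 0.35 (adjusted p = 3.4e-05). Tlr5, the flagellin receptor, rose by 2.06 ± 0.46 and the adaptor Tirap by 2.01 ± 0.33. Of 13 NF-kB subunits and feedback genes 5 were higher and 0 lower (median 0.57). Rel rose by 1.36 ± 0.32 and Nfkb1 by 0.95 ± 0.23, both subunits of the factor. Of 14 genes of the TNF family and its receptors 5 were higher and 2 lower (median 0.35). Tnf itself had 34.9, 47 and 36.8 against 43.1, 71.4, 71 and 122, with overlap, and was not called (0.86 ± 0.47, adjusted p = 0.12). Lta, a lymphocyte member of the TNF family, fell by 2.55 ± 0.67, from 112.65, 42 and 31.9 to 9.94, 7.52, 11.4 and 5.53. Interferon response genes were higher in 5 of 23 and lower in 0, with a median of 0.36, a share of 21.7% against 29.3% over all genes. Ifit3, an interferon-induced antiviral protein, rose by 2.39 ± 0.51, from 158, 460.2 and 275 to 1412, 1128, 1439.5 and 1803.

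Immediate early genes gave few calls. Of 20 immediate early genes 3 were higher, Klf6 (1.36 ± 0.30), Junb (0.85 ± 0.34) and Myc (0.67 ± 0.28), and 0 lower, with a median of 0.46. Junb was not called without control_blank 016 or 021 or healthy_VCV 025, 060 or 062 (0.71 to 0.84). Myc lost its call with any of the 7 libraries left out (0.64 to 0.73) and by edgeR (0.64). Fos stood at 105, 222 and 1177 and 1989.6, 551, 998 and 629, an overlap in which control_blank 074 exceeded 3 of the ventilated libraries, and its change of 1.59 ± 0.69 was not called (adjusted p = 0.051). It was called at 2.57 (adjusted p = 0.00232) without that library, at 1.83 (adjusted p = 0.0405) without healthy_VCV 057 and at 1.77 (adjusted p = 0.049) without 062. Egr1 was not called either, at 1.35 ± 0.74 (adjusted p = 0.12), but was called by limma with only the groups compared in the fit (adjusted p = 0.00876). Feedback genes of the MAP kinases were higher in 8 of 14 and lower in 0 (median 0.69). The phosphatase Dusp4 went from 47, 66.9 and 119 to 370.2, 280.0, 405 and 416 and rose by 2.32 ± 0.30 (adjusted p = 3e-06), and Spred2, an inhibitor of Ras signalling, rose by 2.32 ± 0.31. Of 9 EGF receptor ligands and receptors 5 were higher and 0 lower (median 0.67). The receptors Egfr and Erbb3 rose by 2.28 ± 0.43 and 2.28 ± 0.31, while the ligand Areg, known to follow stretch and injury, overlapped between groups at 79.4, 18.8 and 79.1 against 63, 62.9, 37.7 and 107.

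The coactivator Yap1 went from 287, 370.1 and 553 to 1334, 1186, 1300.2 and 1056 and rose by 1.64 ± 0.33 (adjusted p = 0.00019), and its DNA-binding partner Tead1 rose by 2.01 ± 0.44. Ctgf (ENSRNOG00000015036), a matricellular protein, fell by 1.51 ± 0.23 (adjusted p = 1.3e-05), from 3610.4, 4399 and 5710.2 to 1295, 1652, 1743 and 1663, with every ventilated library under every control. Ankrd1, a stretch-responsive nuclear protein of muscle, went from 1450.65, 2014 and 1905 to 463, 439.7, 355 and 196 and fell by 2.36 ± 0.39. Cyr61 (now Ccn1) overlapped at 1099.7, 2126 and 3672 against 1904, 957, 1429.9 and 969 and was not called (-0.70 ± 0.48, adjusted p = 0.22). Of the 15 genes of the list 7 were higher and 4 lower, with a median of 0.46. Ankrd1 is also made by heart muscle, whose genes are given below. The other lower genes were Jub, an adaptor of cell junctions, and F3, the tissue factor that starts coagulation. Neither call was firm, with Jub at -0.38 ± 0.16 and at -0.21 without control_blank 021 (adjusted p = 0.3), and F3 at -0.80 ± 0.34 and at -0.51 without control_blank 016 (adjusted p = 0.276).

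Of 19 basement membrane and collagen genes 17 were higher and 0 lower, with a median of 1.29. Nid1, which links laminin to collagen IV, stood at 149, 416 and 1040.1 and then 3898, 2840.0, 3705 and 2422, a rise of 2.97 ± 0.60 (adjusted p = 0.00025). Lamc1, a laminin chain present in most basement membranes, went from 719.6, 1102 and 2095 to 8349, 7667, 8733 and 7375 and rose by 2.76 ± 0.53. Col4a1 (ENSRNOG00000016281), the main chain of collagen IV, went from 14378, 22729.6 and 28695 to 50798, 54728, 49037 and 51966, a rise of 1.29 ± 0.26 with ventilated libraries within a narrow band. Sptbn1, the spectrin that lines the inner face of the cell membrane and one of the most abundant of the risen genes, went from 6669, 15735 and 26383 to 58515, 52325, 59961 and 55194 and rose by 2.01 ± 0.38. The fibrillar collagen gene Col1a1 rose by 1.44 ± 0.45, but not without control_blank 021 (1.16, adjusted p = 0.0573), and Col6a3, a chain of the microfibrillar collagen VI, rose by 2.43 ± 0.44. The lowest control value of Nid1, Lamc1 and Col6a3 was in 016 each time.

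Integrins, the receptors that tie cells to this matrix, were higher in 12 of 18 and lower in 0, with a median of 1.39. Itga1, which binds collagen, stood at 82.7, 129 and 608 and then 2004, 1589.5, 1879 and 1383, a rise of 3.18 ± 0.64 (adjusted p = 0.00022). Part of the list belongs to leukocytes, as with Itgam above. Vcan, a large hyaluronan-binding proteoglycan of provisional matrix, rose by 3.73 ± 0.66 from 124, 101 and 322 to 1931, 818, 5515 and 2347, with library 060 highest. The collagen cross-linking enzyme Lox rose by 2.45 ± 0.51 and the microfibril protein Fbn1 by 2.03 ± 0.43. The protease Adamts1, which cleaves versican, rose by 2.01 ± 0.47. Tgfbr3 (ENSRNOG00000002093), the coreceptor that presents TGF-beta, went from 281, 493 and 887 to 5162, 5109, 5546 and 5203 and rose by 3.40 ± 0.35 (adjusted p = 3.2e-07). Over 25 genes of TGF-beta, activin and BMP signalling, 8 were higher (32%) and 4 lower (16%), beside 29.3% and 28.1% of all tested genes. Among the lower was Id1, a target of BMP signalling, which fell by 0.99 ± 0.21.

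Of 13 genes of smooth muscle and pericytes 6 were lower and 5 higher, with a median of 0.21 that lay between -0.02 and 0.27 over the alternatives. Tagln (ENSRNOG00000017628), an actin-binding protein of smooth muscle, went from 19482, 15156 and 11929 to 5517, 5963, 5286 and 6466 and fell by 1.39 ± 0.22 (adjusted p = 2e-05). Tpm2, a muscle tropomyosin, went from 9344, 6817 and 6083 to 1679, 1566, 1475 and 1996 and fell by 2.13 ± 0.25 (adjusted p = 9.4e-07). Actg2, the enteric smooth muscle actin, fell by 1.57 ± 0.29. In contrast Myocd, the coactivator that switches contractile genes on, rose by 2.19 ± 0.36, from 9.73, 28.2 and 55.9 to 115.96, 132, 97.3 and 131, and Notch3, a receptor that keeps mural cells differentiated, rose by 1.86 ± 0.38. Heart muscle genes, known also from the walls of rat pulmonary veins, had a summed value of 10470 to 19350 in control_blank and 2054 to 10920 in healthy_VCV, lowest in 062. Of these, Tnni3 fell by 2.33 ± 0.73, from 2797, 2487 and 2703 to 773, 914, 655 and 168, while Myh6 overlapped at 1098, 1395 and 2591 against 2865, 3494, 2370.0 and 573. The part of heart muscle in the changes of Tpm2 and Ankrd1 was not tested.

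Endothelial genes also split, 12 higher and 5 lower of 26, with a median of 0.51. Cdh5 (ENSRNOG00000013324), the cadherin of endothelial junctions, stood at 545, 2690.1 and 4882 and then 9430.3, 8234, 8055 and 9015, a rise of 2.17 ± 0.50 (adjusted p = 0.00089). Flt1, a receptor and trap for VEGF, went from 274, 678 and 1359.7 to 4404, 4362, 4567 and 4498 and rose by 2.82 ± 0.47. Ednrb, the clearing receptor for endothelin, rose by 2.61 ± 0.43, Flt4, the receptor of lymphatic growth, by 2.38 ± 0.34, and Angpt1, a ligand that calms endothelium through Tie2, by 3.13 ± 0.55. Epas1 (ENSRNOG00000021318), the hypoxia-inducible factor HIF-2α, abundant in lung endothelium, went from 6082, 11705 and 16643 to 57680.0, 54921, 56921 and 55311 and rose by 2.41 ± 0.31 (adjusted p = 2.7e-06). Pecam1, an equally classical marker, went the other way, from 8519.9, 11021 and 6722 to 4021, 5795, 4648 and 4950.3 (-0.83 ± 0.24, adjusted p = 0.0052). Vegfa, the ligand made mostly by alveolar epithelium, fell by 1.202 ± 0.23, from 22343, 26805 and 25669 to 11378, 10659, 9282 and 12117.

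**Figure D2:**
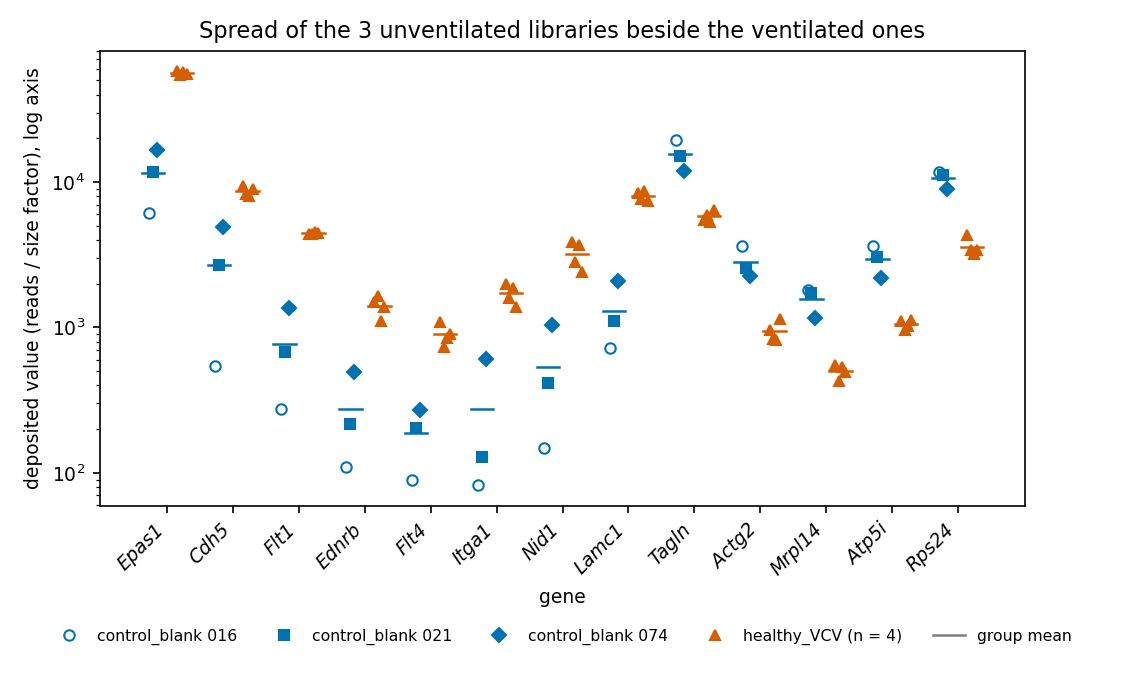
Deposited values (log axis) of 13 genes, with a separate marker for each of the 3 control_blank libraries and triangles for the 4 healthy_VCV libraries. The endothelial and matrix genes rise from control_blank 016 to 021 to 074 (Cdh5 at 545, 2690.1 and 4882) and the ventilated libraries lie above all 3, whereas the muscle, mitochondrial and ribosomal genes on the right are highest in 016 and the ventilated libraries lie under all 3.

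Of 18 ciliated cell genes 14 were lower and 2 higher, with a median of -1.28. Dynlrb2, an axonemal motor light chain, went from 4547, 1871.36 and 1976 to 736, 723, 497 and 443 and fell by 2.13 ± 0.37 (adjusted p = 4.7e-05). Rsph1, a radial spoke protein, fell by 1.78 ± 0.34, and Sntn, at the tip of the cilium, fell by 2.78 ± 0.41. Hydin, a very large protein of the central pair, went against the list with a rise of 2.39 ± 0.55, from 41.3, 24.9 and 149 to 369, 320.4, 301 and 186. The dynein heavy chain Dnah9 also rose (1.90 ± 0.77). Its call was lost without control_blank 016 or 021 (1.69 and 1.19) or any 1 ventilated library (1.77 to 1.96). It was also lost by DESeq2 and edgeR (1.39 and 1.40) and under quantile normalization (1.60). Of 11 secretory cell genes 5 were lower and 0 higher (median -1.46). Scgb3a2 (ENSRNOG00000026912), a secretoglobin of club cells, went from 32869.8, 12742 and 14033 to 3132, 3914, 3338 and 2498 and fell by 2.50 ± 0.29 (adjusted p = 1.1e-06). Agr2, a protein-folding enzyme that mucus cells need, went from 1813, 696 and 1392 to 255, 194, 138 and 67.1 and fell by 3.03 ± 0.46. The main secretoglobin Scgb1a1, the most abundant of these transcripts, went from 1286166, 564962 and 482732 to 186819.8, 174388, 156075 and 158856. In each of Dynlrb2, Rsph1, Sntn, Scgb3a2, Agr2 and Scgb1a1 the control library 016 was the highest, and all 6 were also called without it. The proliferation gene Aurkb, a mitotic kinase, fell by 1.97 ± 0.36, from 1689, 870.1 and 1591 to 462, 429, 272 and 244. Of 23 cell division genes 7 were lower (30.4%, beside 28.1% of all tested genes) and 2 higher. The higher ones were the nucleotide enzymes Rrm2 (1.99 ± 0.38) and Tyms (0.65 ± 0.22), the latter not called without control_blank 016 or 021 or healthy_VCV 057 (0.53 to 0.58).

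Alveolar genes moved in both directions, with 3 of 15 type 1 genes higher and 6 lower, and 2 of 15 type 2 genes higher and 5 lower. Aqp5, the water channel of type 1 cells, fell by 1.45 ± 0.34 (adjusted p = 0.001), from 11042, 14320.4 and 10405 to 4910.2, 2441, 5188 and 5590.1. Slc34a2 (ENSRNOG00000004626), the phosphate transporter of type 2 cells, rose from 26435, 25045 and 25338 to 42153, 55755, 43710.5 and 60623 (0.96 ± 0.18, adjusted p = 0.00011). Scd, which desaturates fatty acids for lipid synthesis, went from 674, 1721 and 1761 to 5958, 4957, 5296 and 6570.3 and rose by 2.16 ± 0.40. Nkx2-1, the transcription factor of lung epithelium, fell by 0.98 ± 0.26, from 6761, 6070.4 and 4363 to 2636, 2874, 2883 and 3055. Sftpc went from 453171, 289372 and 289566 to 178711, 183334, 179519 and 232978, a change of -0.81 ± 0.22 (adjusted p = 0.0035) that turned to 0.21 under quantile normalization (adjusted p = 0.425). Sftpa1, surfactant protein A, was at -0.74 ± 0.23 as deposited and 0.024 under that scaling (adjusted p = 0.946), and was at -0.65 without control_blank 016 (adjusted p = 0.0503). Ager, a receptor that marks type 1 cells, was at -0.41 ± 0.17 (adjusted p = 0.045), a call lost under quantile normalization and without control_blank 016, 021 or 074 or healthy_VCV 057, 060 or 062 (-0.48 to -0.32). The sodium channel subunit Scnn1a, which drains alveolar fluid, rose by 1.03 ± 0.20 (adjusted p = 0.00017), from 10420.4, 7639.8 and 7733 to 17265, 17505, 17289 and 17638. Car4, a carbonic anhydrase of capillary and type 1 cell surfaces, fell by 1.60 ± 0.31.

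**Figure D3:**
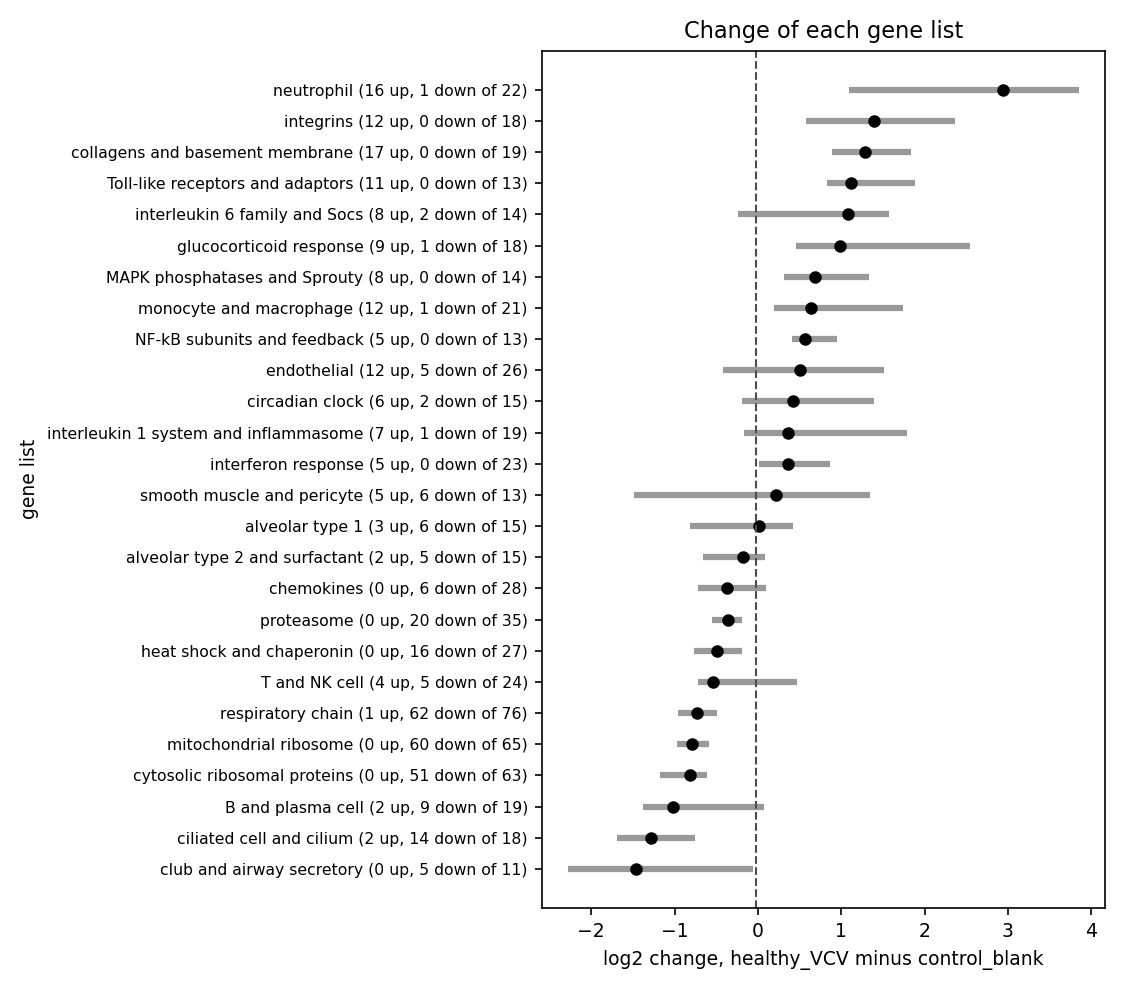
Median log2 change (dots) and interquartile range (grey bars) of the tested members of 26 gene lists, with the number higher and lower beside each name and a dashed line at the median of all tested genes (-0.03). Neutrophil genes have the highest median at 2.94, and the ciliated and secretory lists the lowest at -1.28 and -1.46.

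Genes that respond to glucocorticoids, hormones and drugs that act through a nuclear receptor, were higher in 9 of 18 and lower in 1, with a median of 0.99. Zbtb16 (ENSRNOG00000029980), a zinc finger factor that steroids induce, went from 578, 147 and 256 to 3505, 4033, 4185 and 3014 and rose by 3.71 ± 0.59 (adjusted p = 2.1e-05). Hif3a, an inhibitory member of the hypoxia factor family, rose by 3.68 ± 0.65, from 16.2, 3.32 and 26.4 to 109, 224, 157 and 175. Fkbp5, the cochaperone that dampens the receptor, stood at 2670.3, 689.8 and 1146 and then 3779, 5529, 5063 and 4821, a rise of 1.89 ± 0.45 (adjusted p = 0.0012). The kinase Pdk4, which holds back pyruvate oxidation, rose by 2.69 ± 0.56, with library 057 at 1545. Tsc22d3 and Sgk1, equally well-known targets were not called, at 0.35 ± 0.41 and 0.18 ± 0.26 (adjusted p = 0.47 and 0.56). The lower member was Hsd11b2 (ENSRNOG00000017084), which inactivates glucocorticoids, and which fell by 3.45 ± 0.51 (adjusted p = 9e-06), from 122, 214 and 112 to 11.6, 15, 12.3 and 10.3.

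Genes of the circadian clock were higher in 6 of 15 and lower in 2 (median 0.43), Npas2 (-0.94 ± 0.27) and Cry1 (-0.69 ± 0.24, but -0.57 and adjusted p = 0.075 without control_blank 074). Nr1d1, the repressor of the core loop, went from 502, 257 and 105 to 1370.0, 2439.8, 1789 and 2352 and rose by 3.01 ± 0.41 (adjusted p = 3.7e-06). Per3 rose by 1.56 ± 0.30, from 199, 199 and 259.6 to 507, 985, 611 and 558. Per1, which both the clock and steroids drive, rose by 1.23 ± 0.39, but not without control_blank 021 (0.66, adjusted p = 0.14). The levels of Arntl and Dbp run in opposite phase over the day, and they had 836, 855 and 823 against 985, 831, 846 and 885 and 372, 379 and 293 against 238, 408, 326 and 258, with overlap and no call (adjusted p = 0.72 and 0.62). The hour at which each lung was taken is not given in the labels used here.

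Heat shock proteins and chaperonins gave 16 lower and 0 higher of 27, with a median of -0.49. Hspe1 (ENSRNOG00000014868), whose promoter is shown above, went from 2456, 1926 and 1507.45 to 968, 924, 995 and 893 and fell by 1.03 ± 0.18 (adjusted p = 4.6e-05), with a ventilated range much tighter than that of the controls. Hspb1, a small chaperone that guards actin, went from 3548, 5461 and 6523 to 2434.40, 2556, 2831 and 2122 and fell by 1.02 ± 0.29. The other genes with the element in their promoter were also lower, Hspd1 at -0.68, Hsph1 at -0.94 and Serpinh1 at -0.58. These 3 were less firm, since without control_blank 016 Hspd1 was at -0.51 (adjusted p = 0.0777) and Hsph1 at -0.60 (adjusted p = 0.135). Hsph1 was at -0.76 without healthy_VCV 062 (adjusted p = 0.0505), and Serpinh1 was not called without control_blank 021 (-0.48, adjusted p = 0.123) or 074, without healthy_VCV 025, 057 or 062 (-0.59 to -0.54), or under quantile normalization (-0.49, adjusted p = 0.0638). Hspa1a, the inducible Hsp70, spread from 1302 to 14350 in control_blank and was not called (-0.85 ± 0.81, adjusted p = 0.38), with library 025 at 8327 against 2049 to 2890 in the other ventilated ones.

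Of 26 genes of the unfolded protein and amino acid stress responses 8 were higher and 2 lower (median 0.25), Creld2 (-0.79 ± 0.22) and Pdia3 (-0.36 ± 0.14). The share of higher genes was 30.8%, beside 29.3% of all tested genes. Pdia3 was not called without control_blank 021 or 074 or healthy_VCV 025 or 057 (-0.37 to -0.32) or under quantile normalization (-0.29). Trib3, a pseudokinase induced by amino acid shortage, went from 118, 84.1 and 56.7 to 722, 562, 685 and 1033 and rose by 3.13 ± 0.32 (adjusted p = 3.2e-07). Ern1, the sensor also called IRE1, went from 94, 94.6 and 220.5 to 824, 1055, 1110.1 and 886 and rose by 2.93 ± 0.33. The chaperone Hspa5, the standard readout of the response, overlapped at 15002, 13696 and 13639 against 10375, 10356, 15036 and 10983 and was not called (adjusted p = 0.39).

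Ribosomal proteins and genes of mitochondria gave mostly lower calls, against 28.1% lower over all genes. Of 65 proteins of the mitochondrial ribosome 60 were lower and 0 higher, with a median of -0.80. Of 76 respiratory chain genes 62 were lower and 1 higher, with a median of -0.73, and of 63 cytosolic ribosomal proteins 51 were lower and 0 higher (median -0.82). The higher one was Sdha, a subunit of complex II, at 0.26 ± 0.09. It was not called without control_blank 074 or healthy_VCV 025 (0.23 and 0.23), by edgeR (0.23) or under quantile normalization (0.22). Mrpl14 (ENSRNOG00000019734) went from 1806, 1719 and 1157 to 555, 431, 534 and 498 and fell by 1.61 ± 0.17 (adjusted p = 3.2e-07). Atp5i, a small subunit of the ATP synthase, went from 3661, 3057 and 2194 to 1117, 955, 1017 and 1122 and fell by 1.47 ± 0.19. Rps24, a small-subunit ribosomal protein, went from 11718, 11233 and 8973 to 4327, 3428, 3189 and 3420.2 and fell by 1.57 ± 0.19. Ribosomal protein genes have many near-identical pseudogenes in the rat, so that single members are uncertain where reads could be split. Proteasome subunits were lower in 20 of 35 and higher in 0, with a median of -0.36. Of 19 tRNA synthetases 4 were higher and 2 lower. Translation factors were split, 11 lower and 5 higher of 26, and the elongation factor Eef2 rose by 0.43 ± 0.12 (adjusted p = 0.0043), although at 0.30 under quantile normalization it was not called (adjusted p = 0.058).

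In the glycolysis list 9 of 26 genes were higher (34.6%) and 6 lower (23.1%), beside 29.3% and 28.1% of all tested genes. Pfkfb3, which makes the activator of glycolysis, went from 284, 173 and 504 to 2443, 2979, 2699 and 2204 and rose by 3.13 ± 0.44 (adjusted p = 5.8e-06). The hexokinases Hk2 and Hk3 rose by 2.61 ± 0.35 and 2.12 ± 0.32, the latter known from myeloid cells, and the lactate exporter Slc16a3 went from 122, 152 and 117.43 to 451, 478, 672 and 586. Ldha, the lactate-forming enzyme, was among the lower ones at -0.73 ± 0.19 (adjusted p = 0.002). Cyp1b1, a cytochrome of the aryl hydrocarbon receptor pathway, rose by 3.92 ± 0.54, from 7.29, 12.2 and 29.6 to 255, 186, 245 and 221, and Fmo2, the lung flavin monooxygenase, by 1.68 ± 0.27. Mt2A, a metallothionein, rose by 2.68 ± 0.71, and the peroxide scavenger Prdx2 fell by 1.14 ± 0.14 (adjusted p = 2e-06). The complement gene C4b rose by 2.68 ± 0.72, from 2384, 1869.7 and 1533 to 17161, 10571, 12973 and 9223. Hmox1, the haem-degrading enzyme induced by oxidants, was not called (0.29 ± 0.40, adjusted p = 0.56). Among genes often used as references, Gapdh went from 96.4, 34.3 and 43.9 to 19.1, 17.9, 35.9 and 26.1 (-1.11 ± 0.46, adjusted p = 0.043), with overlap and no call without control_blank 016 (-0.68, adjusted p = 0.271) or healthy_VCV 025, 057 or 062 (-1.16 to -0.98). These values of Gapdh are very low beside Actb, which stood at 68967 in healthy_VCV 060. Whether the Gapdh entry holds all reads of that gene was not tested, so its change may not be that of the gene. Actb changed by 0.44 ± 0.28 (adjusted p = 0.17) and Hprt1 by -0.30 ± 0.14 (adjusted p = 0.072). Hprt1 was called without healthy_VCV 057 (-0.42, adjusted p = 0.0171) and under quantile normalization (-0.36, adjusted p = 0.0317).

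Coagulation genes were higher in 9 of 20 and lower in 2, F3 (above) and the plasminogen receptor subunit S100a10 (-0.98 ± 0.21), with a median of 0.48. Plat, the tissue plasminogen activator, went from 2592, 2537 and 3239 to 8054, 9493, 7555 and 8324 and rose by 1.59 ± 0.32 (adjusted p = 0.00023). F2rl2, a thrombin receptor of the protease-activated family, went from 21.9, 31 and 31.9 to 239, 335, 521 and 429.7 and rose by 3.67 ± 0.50. The Wnt receptors Fzd4 and Lrp6 rose by 2.74 ± 0.43 and 2.56 ± 0.32, while the secreted Wnt inhibitor Sfrp2 fell by 1.60 ± 0.36 (adjusted p = 0.00074). Ptger4, a receptor for prostaglandin E2, rose by 2.10 ± 0.38, from 21.1, 48.7 and 71.1 to 222, 143, 177 and 199.8. Leading decreases outside the lists included Efhd1, a calcium-binding mitochondrial protein, which fell by 2.80 ± 0.40, and Bucs1, a butyryl-coenzyme A synthetase, which fell by 3.02 ± 0.69. The other leading decreases were in Lyzl4, a relative of lysozyme (-3.10), the phosphatase inhibitor Ppp1r14d (-2.92), the bile acid conjugating enzyme Baat (-2.72), the phosphodiesterase subunit Pde6h (-2.69), the lectin Lgals7 (-2.65) and the pancreatic protease Ctrb1 (-2.65). Nppa, the atrial natriuretic peptide, had the lowest change of the named genes (-3.59 ± 1.09, adjusted p = 0.0072), but was highest in control_blank 074 (115.83) and was not called without it (-2.68, adjusted p = 0.059).

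Constant ventilation after chronic injury, chronic_VCV against control_chronic, shares no library with the comparison above and called 2205 genes (14.8%), 1027 higher (6.89%) and 1178 lower (7.9%). The change in uninjured lungs minus the change in chronically injured lungs was tested in the same fit. It was called for 3564 genes (23.9%), 2085 with a more positive (14%) and 1479 with a more negative change (9.92%) in uninjured lungs. That count rested on single libraries, at 943 without control_blank 016 and 1150 without chronic_VCV 067, and 876 genes were called in the full fit and in each of the 15 fits that left out 1 library. Series coincide with groups in both arms (12 against 14 and 15, and 18 against 15), so a difference of arms and a difference of series cannot be told apart. Neutrophil genes had medians of 2.94 and 2.17 in the 2 arms, and after chronic injury Prok2 rose by 5.01 ± 0.51 and Mmp8 by 4.09 ± 0.51.

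In the list of YAP and stretch targets 4 of 15 genes had a called difference above 0 and 4 one under 0, and in that of smooth muscle and pericytes 1 and 6 of 13. Ctgf, Tagln and Tpm2 differed in all of the fits and are described here. Whether list members not named in this text did so was not examined. Ctgf rose after chronic injury (0.81 ± 0.22) and fell in uninjured lungs, a difference of -2.32 ± 0.32 (adjusted p = 0.0021). Tagln and Tpm2 were at 0.34 ± 0.21 and 0.08 ± 0.24 after chronic injury and differed by -1.74 ± 0.31 and -2.20 ± 0.34 (adjusted p = 0.004 and 0.0021). Tnfrsf12a, the receptor for the cytokine TWEAK, rose by 1.78 ± 0.38 after chronic injury, and Acta1, the skeletal muscle actin, by 2.68 ± 0.41. In uninjured lungs they were at -0.88 ± 0.40 (adjusted p = 0.061) and -1.11 ± 0.43 (adjusted p = 0.03), which gave differences of -2.65 ± 0.55 and -3.79 ± 0.59. Tnfrsf12a was called lower in uninjured lungs by DESeq2 and edgeR (-0.90 and -0.93), under quantile normalization (-0.96) and with only the groups compared in the fit (-0.88). The change of Acta1 in uninjured lungs was not called without control_blank 016, 021 or 074 or without healthy_VCV 025 (-1.13 to -0.999). Of 26 endothelial genes 11 had a called difference above 0, 1 had one under 0 and 14 were not called. Cdh5 differed by 2.83 ± 0.70 (adjusted p = 0.0091), Ednrb by 2.68 ± 0.59 and Calcrl, the receptor for adrenomedullin, by 2.60 ± 0.54, and Epas1, outside the list, by 2.17 ± 0.43. None of these 4 was called in chronically injured lungs. Calcrl was at 1.55 in uninjured lungs (0.759 without control_blank 016) and at -1.054 after chronic injury (limma adjusted p = 0.0559). The gene under 0 was Pecam1 (-0.91 ± 0.33, adjusted p = 0.049), which was called in 4 of the 15 fits, and the differences of Angpt1, Flt1 and Flt4 were called in 13 of them. Lifr differed by 2.99 ± 0.66, Tgfbr3 by 2.31 ± 0.49, Fzd4 by 2.70 ± 0.60, Lrp6 by 1.82 ± 0.45, Ern1 by 1.90 ± 0.45, Spred2 by 1.91 ± 0.43 and Hydin by 3.01 ± 0.76. Rps24, Atp5i and S100a10 had differences of -1.30 ± 0.27, -1.06 ± 0.26 and -1.35 ± 0.29. The mucin Muc5b fell after chronic injury (-3.05 ± 0.72) and was not called in uninjured lungs, where it ran from 471 to 5357 (0.97 ± 0.76, adjusted p = 0.28), a difference of 4.02 ± 1.05.

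**Figure D4:**
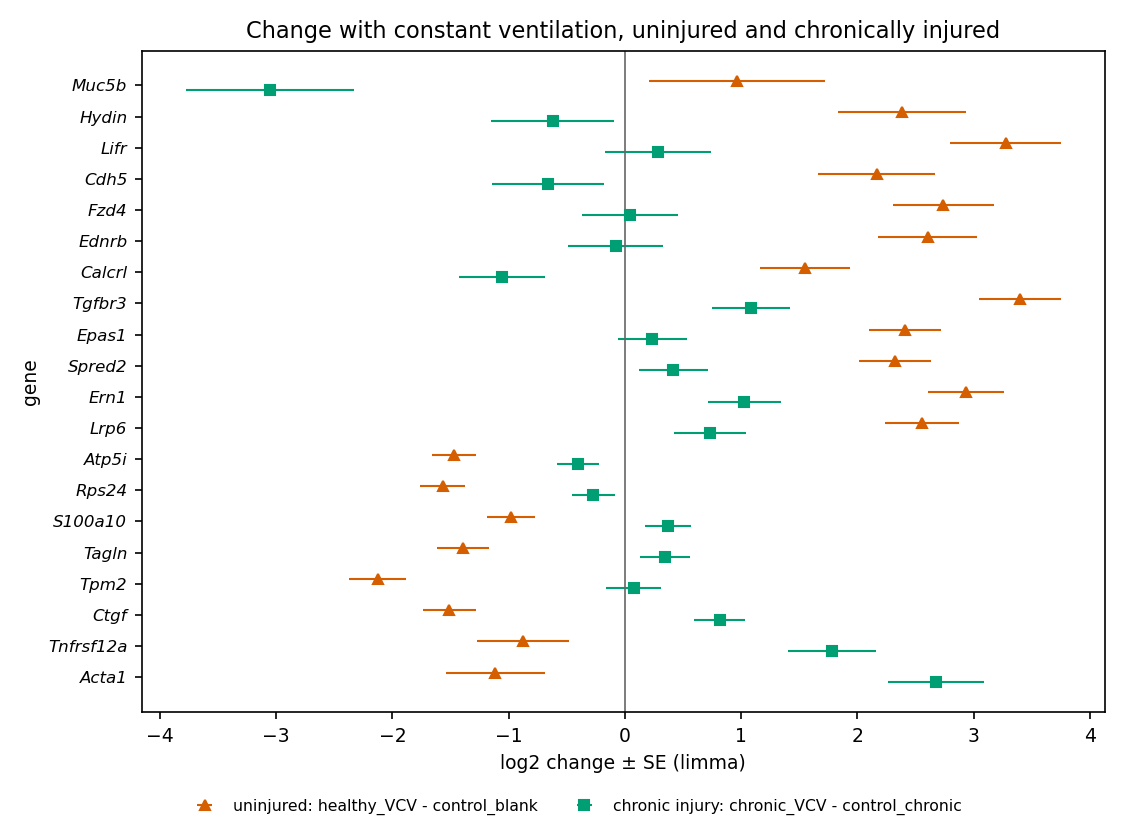
Log2 change ± SE with constant ventilation in uninjured lungs (triangles) and in chronically injured lungs (squares), for the genes named here whose difference was called in the full fit and in each fit that left out 1 library. Acta1 lies lowest with a difference of -3.79 and Muc5b highest with 4.02.

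The comparisons of acute_VCV and of healthy_noisy with control_blank use the same 3 control libraries, so only their values are set side by side. They called 5563 genes (37.3%; 20.6% higher and 16.7% lower) and 4791 genes (32.1%; 17.5% higher and 14.6% lower). Neutrophil medians were 4.05 in acute_VCV and 2.70 in healthy_noisy, and those of ciliated genes were -1.61 and -1.04. In acute_VCV, whose libraries are of series 12 like the controls, the medians were 0.05 for the mitochondrial ribosome, -0.07 for the respiratory chain and 0.09 for cytosolic ribosomal proteins, but 0.495 for translation factors and 0.93 for tRNA synthetases. In healthy_noisy, of series 15, these 5 medians were -0.57, -0.53, -0.497, -0.15 and -0.13. Heat shock genes had medians of 0.36 in acute_VCV and -0.48 in healthy_noisy, and Hspe1 was at 0.93 ± 0.19 and -0.82 ± 0.19. Collagens and basement membrane genes had medians of 0.38 and 0.53, with 4 and 7 of 19 higher and 1 and 0 lower. Ctgf was called in opposite directions, 0.92 ± 0.24 in acute_VCV and -1.06 ± 0.24 in healthy_noisy.

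**Figure D5:**
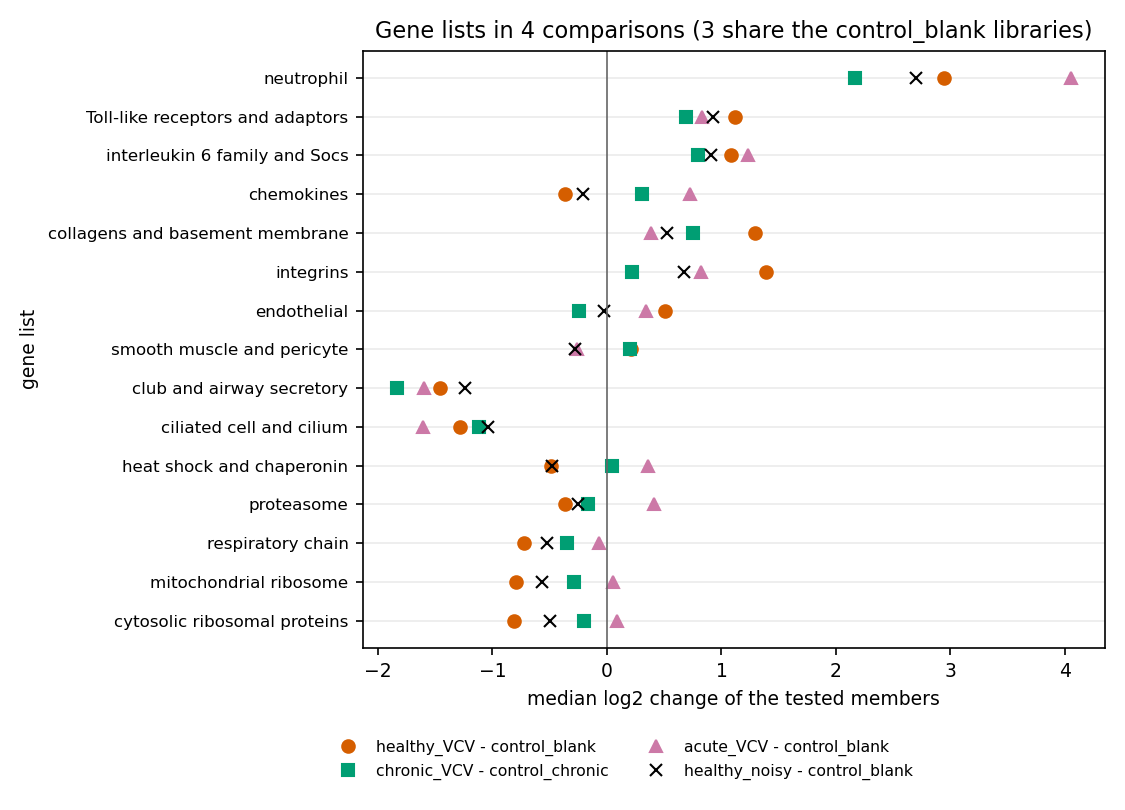
Median log2 change of the tested members of 15 gene lists in 4 comparisons, of which the 3 against control_blank share their control libraries. Neutrophil genes lie right of 0 and ciliated and secretory genes left of 0 in all 4, while the heat shock, proteasome, mitochondrial ribosome and cytosolic ribosomal lists lie right of 0 in acute_VCV (0.36, 0.41, 0.05 and 0.09) and left of 0 in healthy_VCV (-0.49, -0.36, -0.80 and -0.82).

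Constant against variable ventilation of uninjured lungs, healthy_VCV against healthy_noisy, called 1538 genes (10.3%), 896 higher (6.01%) and 642 lower (4.31%). Without single libraries or with another model the count changed. With number series as a covariate limma called 0 genes, with 1582 at an unadjusted p under 0.05, and leaving out 1 library gave as few as 1 call (without healthy_VCV 025 or healthy_noisy 061, with 4123 and 2833 at an unadjusted p under 0.05). Without healthy_VCV 057, 060 or 062, or healthy_noisy 029, it gave 2, 18, 477 and 4 calls, and without healthy_noisy 078 it gave 1982. In the fit of all libraries Myh6 differed by 4.93 ± 1.55 (adjusted p = 0.046), and 10 of the 15 heart muscle genes were called higher under constant ventilation. Collagens had 5 of 19 higher and 0 lower, and Itga1 differed by 2.65 ± 0.64 (adjusted p = 0.028).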

How the data were processed

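Poly(A) RNA of 28 right upper lung lobes was sequenced strand-specifically (dUTP method), per the labels' protocols. The deposited signal values are read counts per gene that the authors divided by a size factor per library. CASAVA 1.8.0, BWA, bedtools 2.11, DESeq 1.8.3 and rn4 are named in the submitters' processing notes, and Ensembl 67 is named per the file header.

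Genes with a mean of 10 or more were kept (14908 of 17002), values were taken as log2(value + 1), and 8 group means were fitted over all 28 libraries with limma 3.58.1 (R 4.3.3; trended, robust variance), with two-sided p-values adjusted by Benjamini-Hochberg at 0.05. All libraries entered the fit, so that they share an estimate of the spread. The values are whole multiples of 1 read in each library (100% within 0.1 read), and the recovered reads went into edgeR 4.0.16 and DESeq2 1.42.0 as alternatives. Other alternatives were another pseudocount, no filter, quantile normalization, fewer groups, number series as a covariate, and each library left out in turn. In simulated data for the main comparison 100 of 14908 genes were changed 2-fold and 100 4-fold. Of these 54% and 90% were recovered, and 6 of 14708 unchanged genes were called. The simulated libraries varied independently around 1 mean per gene. The real data, with 57.4% of genes called and control_blank libraries that spread in one order, differ from that setting, so these rates may not hold for them. Replicates were distinct libraries, with a chi-square per gene of 21.45 to 31.61 between healthy_VCV pairs and 92.71 to 153.49 between control_blank pairs. The control_blank libraries thus differed more among themselves, which a shared estimate of the spread does not reflect. With only the groups compared in the fit, 7979 of the 8559 calls were kept in the same direction and 580 were lost.

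The named genes were the 12 with the largest change in each direction among called genes with groups apart, a symbol and a group mean of 50 or more, 6 abundant genes in each direction, up to 4 of each gene list with its first member, the 5 highest and 5 lowest differences in each of the other 2 comparisons, and a fixed set of genes. This rule picks 309 genes, of which 161 are described. A further 24 lie outside it. The comparison, the lists and the tests were chosen with earlier results of these data known. Symbols are those of the deposited table, and RefSeq (GRCr8) served for current names and promoters. Python 3.11.15 drew the figures.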

Additional observations from a re-analysis of the deposited data

Results flagged for a closer look

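In 13 genes 1 of the 4 healthy_VCV libraries stood apart from the other 3 by more than Dixon's criterion allows. Chance alone gives such a gap in about 1 in 20 groups, and the 185 named genes were all examined. Library 025 was the highest for Hspa1a (8327). Library 057 was the highest for F3 (3378), Hprt1 (925), Klf6 (2403), Pdk4 (1545) and Tsc22d3 (15878). Library 057 was the lowest for Col6a3 (9488). Library 060 was the highest for Actb (68967), Hk2 (1093), Hspa5 (15036), Msr1 (1156) and Serpinh1 (10325). Library 062 was the highest for Sftpc (232978).

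In 48 of the named genes the change with constant ventilation differed between uninjured and chronically injured lungs, as a log2 difference past the limma threshold. In 20 of them the call was also made with each of the 15 libraries left out. The change was more positive in uninjured lungs for Calcrl (2.6), Cdh5 (2.83), Ednrb (2.68), Epas1 (2.17), Ern1 (1.9), Fzd4 (2.7), Hydin (3.01), Lifr (2.99), Lrp6 (1.82), Muc5b (4.02), Spred2 (1.91) and Tgfbr3 (2.31). It was more negative for Acta1 (-3.79), Atp5i (-1.06), Ctgf (-2.32), Rps24 (-1.3), S100a10 (-1.35), Tagln (-1.74), Tnfrsf12a (-2.65) and Tpm2 (-2.2). In the other 28 the call was lost with at least 1 library left out. Differences above 0 among these were those of Angpt1 (2.72), Ccr2 (2.44), Cd177 (2.11), Dnah9 (3.01), Dsg1b (1.93), Ebf1 (1.5), Flt1 (2.32), Flt4 (1.69), Itga1 (3.13), Mertk (1.16), Notch3 (1.56), Nr1d1 (1.85), Sptbn1 (2.01), Tead1 (2.11), Tirap (1.32), Trib3 (1.42), Yap1 (1.24) and Zbtb16 (2.53). Differences under 0 were those of Actg2 (-1.5), C1qa (-0.86), Cyr61 (-2.01), F3 (-1.63), Gapdh (-2.36), Hdc (-1.27), Hspe1 (-0.9), Hsph1 (-1.17), Ldha (-0.75) and Pecam1 (-0.91). Number series and group coincide in both arms and cannot be told apart.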

How the results depend on the processing

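Of the 157 named genes called in uninjured lungs, 132 kept their call under all 13 alternatives. The count of 8559 called genes was 9023 with DESeq2, 8766 with edgeR, 8759 without the filter, 8587 with only the groups compared, 8683 with a pseudocount of 10, 8780 under quantile normalization, and 6642 to 8658 with 1 library left out. Quantile normalization moved the median of all genes from -0.03 to -0.13 and the share of higher calls from 51% to 44.9%. After chronic injury, leaving out 1 library gave 1181 to 2065 calls, and for the difference between arms 943 to 4933. For constant against variable ventilation the count of 1538 became 0 with number series as a covariate, 3886 with only the groups compared, and 1 to 1982 with 1 library left out. The causes were not tested.

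Under quantile normalization the changes of Sftpc (0.206), Sftpa1 (0.024), Il6 (-0.579), Mpo (-0.291) and Cpa3 (-0.021) had the opposite sign, none called. With 1 library left out the sign also turned, with no call, for Il6 (-0.315 to 0.745), Mpo (-0.121 to 0.981), Cpa3 (-0.261 to 0.308), Areg (-0.319 to 0.692), Cd177 (-0.047 to 0.33), Myh6 (-0.009 to 0.86), Pycard (-0.261 to 0.03), Sgk1 (-0.02 to 0.349) and Tsc22d3 (-0.054 to 0.616). The median changed sign under some setting in 13 of 57 gene lists, among them alveolar type 1 (-0.16 to 0.07), alveolar type 2 (-0.28 to 0.02), smooth muscle (-0.02 to 0.27) and glycolysis (-0.03 to 0.13).

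No paired analysis was possible because no replicate number occurs in both groups of a comparison. A planned description of protein length was not run, since no protein table was used here. With 3 libraries against 4, and about 54% of 2-fold changes recovered even in the simpler simulated data, a missing call does not show that a gene was equal.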

Other observations

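Further gene lists held smaller or mixed counts, beside 29.3% higher and 28.1% lower over all tested genes. Of 18 complement genes 7 were higher and 0 lower, with a median of 0.50. Of 26 genes of tight and adherens junctions 11 were higher and 5 lower, of 23 genes of cholesterol synthesis and uptake 9 were higher and 4 lower, and of 25 xenobiotic and aldehyde enzymes 5 were higher and 7 lower. Of 8 keratins 1 was higher and 5 lower. Of 21 genes of antigen processing 2 were higher and 6 lower. Of 23 genes of prostaglandin and leukotriene synthesis 6 were higher and 4 lower. Of 7 skeletal muscle genes, Acta1 among them, 4 were lower and 0 higher, and the summed value of the list was 1004 to 2170 in control_blank and 277 to 764 in healthy_VCV.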
